A study of Mus musculus with 3 samples.

Results

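The 10 genes described here carry out or control presentation of antigen by MHC class I and CD1d: the heavy chains H2-K1 and H2-D1, their light chain B2m, the peptide transporter subunits Tap1 and Tap2, the loading factor Tapbp, the immunoproteasome subunits Psmb8 and Psmb9, the transactivator Nlrc5 and the lipid-presenting molecule Cd1d1. They were matched by gene symbol, and all 10 were present among the 30406 gene identifiers that the 3 libraries share. Their levels are given as CPM, UMIs of a gene per 1000000 UMIs of all shared genes, where a UMI (unique molecular identifier) stands for a captured transcript and the UMIs of all cells of a group were summed first. Ranges in parentheses are 95% intervals, which cover counting error only.

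Thymocytes were cleared of CD8+ cells by magnetic separation. Cells positive for TCRβ and CD1d tetramer and negative for CD24 and NK1.1 were then sorted. This gate is for invariant natural killer T (iNKT) cells, whose receptor binds lipid on CD1d. The paper treats the sorted cells as iNKT cells past selection that include precursors of NK1.1+ cells. The C57BL/6 library came from C57BL/6 mice without bone marrow transplantation (BMT), labelled 7 weeks old. The BM only and BM + Spl libraries came from F1 hosts bred from C57BL/6 and BALB/c, labelled 16 weeks old and 9 weeks after BMT. Both kinds of F1 mice had been lethally irradiated and had received T cell-depleted C57BL/6 marrow, and the BM + Spl mice had also received C57BL/6 splenic cells, which cause graft-versus-host disease (GvHD). Mice were pooled within each library and each group has 1 library, so that there was no replicate check and no test was run. The donor cells carry the H-2b class I alleles of the mm10 reference. The F1 hosts carry H-2b and H-2d, and transcripts of host alleles could not be separated in these counts.

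A class I molecule is a heavy chain bound to B2m and to a short peptide. Proteasomes cut proteins into such peptides, with Psmb8 and Psmb9 replacing constitutive catalytic subunits in the immunoproteasome; the TAP transporter, made of Tap1 and Tap2, moves the peptides into the endoplasmic reticulum; and Tapbp (tapasin) bridges the transporter and the empty heavy chain. Nlrc5 acts in the nucleus on the promoters of class I heavy chains, B2m, Tap1 and Psmb9, and interferons raise transcription of most of these genes. In the thymus, CD1d on CD4+CD8+ thymocytes selects iNKT cells, which then take on the NKT1, NKT2 or NKT17 program, named for the cytokines they make.

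The promoters of H2-K1 and B2m are shown because the genes encode the heavy and light chain of 1 molecule, of which only the heavy chain differed by more than 1.5-fold between NKT1-like and NKT2-like cells. Each is the 250 bases before the RefSeq transcript start on GRCm38.p6, read 5′ to 3′ on the gene's strand. Capitals mark matches to an interferon regulatory factor core (AANNGAAA), an NF-kB core (GGGNNTTCC), an X2 box core (TGACG) and a CCAAT box (CCAAT), each searched on both strands. These motifs were chosen with the sequences in view.
H2-K1 (chr17:34000348-34000597, minus strand): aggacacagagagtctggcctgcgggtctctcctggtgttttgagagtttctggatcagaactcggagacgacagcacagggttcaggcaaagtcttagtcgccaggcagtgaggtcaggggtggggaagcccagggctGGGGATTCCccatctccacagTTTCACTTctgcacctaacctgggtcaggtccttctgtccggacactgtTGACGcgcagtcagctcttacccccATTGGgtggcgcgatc
B2m (chr2:122147437-122147686, plus strand): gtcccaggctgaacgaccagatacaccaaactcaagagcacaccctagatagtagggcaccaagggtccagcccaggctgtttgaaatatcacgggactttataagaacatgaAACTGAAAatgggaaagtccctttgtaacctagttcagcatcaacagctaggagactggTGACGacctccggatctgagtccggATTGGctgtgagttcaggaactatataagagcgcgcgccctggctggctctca
The H2-K1 window held all 4 motifs, at 111 (NF-kB), 90 (interferon regulatory factor), 41 (X2) and 16 bases (CCAAT) before the start, and the B2m window held 3, at 137 (interferon regulatory factor), 78 (X2) and 53 bases (CCAAT). Over 32851 RefSeq windows of the same length, 21.3% held the interferon regulatory factor core, 4.98% the NF-kB core, 17.8% the X2 core and 33.8% the CCAAT box, and 33 windows (0.1%) held all 4. A match is a description of letters and not a binding site.

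The stretch from the NF-kB core to the interferon regulatory factor core is shown for H2-K1, H2-D1 and 3 heavy chains of the Q region that are described with the wider pathway, since these paralogs were measured beside each other.
H2-K1 (chr17:34000430-34000458, minus strand): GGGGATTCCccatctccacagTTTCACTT
H2-D1 (chr17:35262923-35262951, plus strand): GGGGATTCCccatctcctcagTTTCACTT
H2-Q4 (chr17:35379444-35379471, plus strand): GGGATTTCCcatctccccagTTTCACTT
H2-Q6 (chr17:35424677-35424705, plus strand): GGGGATTCCccatctccccagTTTCACTT
H2-Q7 (chr17:35439022-35439049, plus strand): GGGGATTCCcatctccccagTTTCACTT
The spacer between the cores was 12 bases in H2-K1, H2-D1 and H2-Q6 and 11 in H2-Q4 and H2-Q7. Upstream of H2-K1 and H2-D1, 166 of 188 aligned bases were identical (88.3%) with 0 gaps. Promoter windows were found for 7 of the 10 genes, not for Tap2, Nlrc5 or Cd1d1. The window of H2-D1 held 4 of the motifs, those of Tap1 and Psmb9 held 2, that of Tapbp held 1 and that of Psmb8 held 0. The windows of Tap1 and Psmb9 share 225 bases, and their X2 and CCAAT matches are the same sites read on opposite strands. The RefSeq start used lay 3579 bases from the GENCODE start for Tapbp, 474 for Psmb8, 434 for Psmb9 and 364 for H2-D1. Tap1 (17:34187553-34197225, plus strand) and Psmb9 (17:34181987-34187764, minus strand) are divergent neighbours with 225 bases between their RefSeq starts. The GENCODE spans given here overlap, as GENCODE places the Psmb9 start 434 bases from that of RefSeq.

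On mm10 (GENCODE vM21), 7 of the genes lie on chromosome 17. Tapbp (33915899-33929292) and H2-K1 (33996017-34000347) come first, then Psmb9, Tap1, Psmb8 (34197721-34201454) and Tap2 (34203527-34216321), and H2-D1 (35262730-35267499) lies on the far side. B2m is at 2:122147686-122153083, Nlrc5 at 8:94434356-94527272 and Cd1d1 at 3:86995834-86999441. Of all 90-base stretches of the longest coding transcript, 5.46% of H2-D1, 0.131% of H2-K1 and 16.4% of Cd1d1 were also present in a transcript of another gene, for Cd1d1 its paralog Cd1d2. These shares cover whole transcripts, whereas the kits named in the labels read transcript ends. How far counts of H2-D1 and Cd1d1 are uncertain was thus not measured.

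Cells needed more than 200 but fewer than 6000 detected genes, and mitochondrial genes had to give less than 10% of their UMIs. By this filter 4434 of 4613 C57BL/6 cells, 5970 of 5986 BM only cells and 5557 of 5573 BM + Spl cells were kept, with a median of 12086, 4740 and 6495 UMIs per cell. The paper states the same limits but reports fewer kept cells of both BMT libraries and more of C57BL/6. The cells described here are thus not the paper's cell sets, and the reason was not tested. The C57BL/6 library was counted with an earlier Cell Ranger version, shared 0 cell barcodes with the others and had 6.48% mitochondrial UMIs (median) against 0.687% and 0.511%. Transplantation, host strain, age and processing thus cannot be told apart in comparisons with this library. The labels name library kits that read the 3' end and the 5' end and do not say which library used which. The BM only and BM + Spl libraries shared 43 barcodes. Cells with a UMI of a Cd3 gene made up 99.9%, 93.4% and 91.7%. Since the BMT libraries also held other cells, each cell was placed by raw UMIs in the first of 11 gates whose marker list it met, in general with 3 of 8 markers; none of the 10 genes is a marker. A gate cut from a marker count is a range and not a type: between 6.99% and 43.9% of NKT1-like, NKT2-like and NKT17-like cells had exactly the 3 markers required.

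The gates held 909, 2393 and 589 NKT1-like cells in C57BL/6, BM only and BM + Spl, 1688, 874 and 1360 NKT2-like cells, and 143, 360 and 139 NKT17-like cells. The V beta segments typical of iNKT receptors were found in 92.2% and 90.6% of assignable NKT2-like cells of the BMT libraries. In NKT1-like cells the share was 92.8% in BM only and 39.2% in BM + Spl, and in NKT17-like cells 67.2% and 39.5%. Most assignable BM + Spl cells of these gates thus carried other V beta segments. In that library 27.9% of assignable Treg-like cells, 37.5% of Cd8a+Cd8b1+ cells and 42.7% of cells of no gate had the typical segments. Its NKT1-like and NKT17-like shares lay within this range and thus cannot be read as shares of iNKT cells. Exactly the 3 required markers were present in 37.2% of NKT1-like and 43.9% of NKT17-like cells there, against 9.90% and 23.9% in BM only. In NKT1-like and NKT17-like cells of BM + Spl the median number of Treg-like markers was 3 of 8, against 2 in the other NKT gates.

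**Figure D1:**
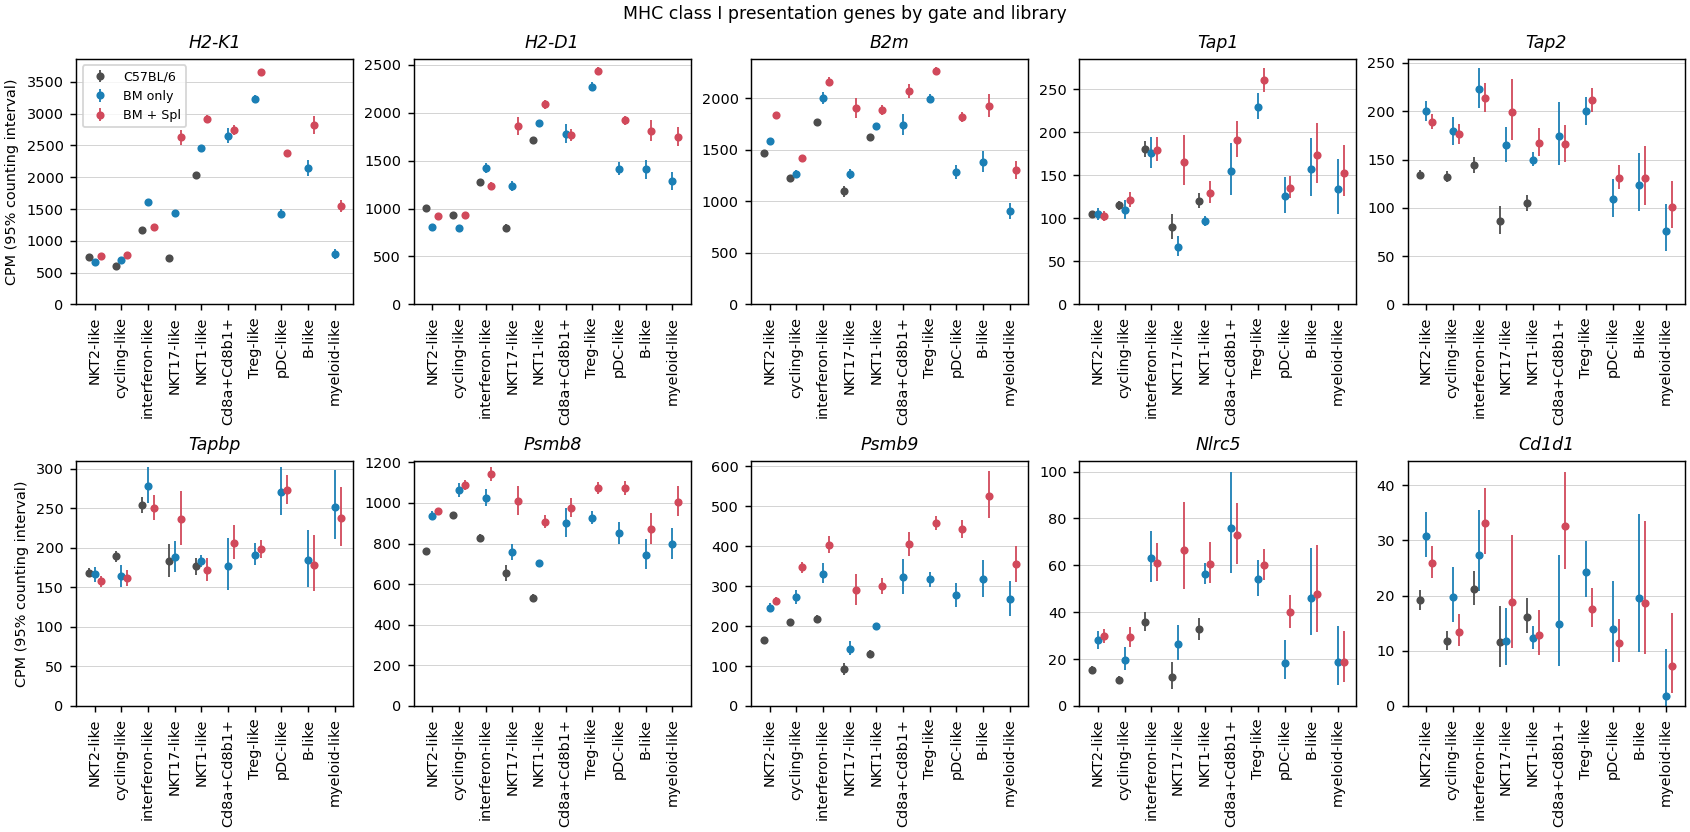
Level of each gene (y axis, CPM; bars, 95% counting intervals) in each gate (x axis) of the 3 libraries, for gates of at least 50 cells. H2-K1, H2-D1 and Nlrc5 were low in NKT2-like and cycling-like cells of every library and high in NKT1-like and Treg-like cells, whereas Psmb8 and Tapbp varied less.

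Over all filtered cells, H2-K1 and Nlrc5 were lower in C57BL/6 than in BM only by more than 1.5-fold, and the other genes were within it. H2-K1, a heavy chain that shows peptides to CD8+ T cells, was at 928 CPM (919.9 to 935) in C57BL/6, 1792 (1778 to 1807) in BM only and 1824 (1811 to 1837) in BM + Spl. H2-D1, the other classical heavy chain of this haplotype, was at 1103 CPM (1094 to 1111) in C57BL/6, 1474 (1461 to 1487) in BM only and 1490.5 (1479 to 1502) in BM + Spl. B2m, their common light chain, was at 1454 CPM (1444 to 1464) in C57BL/6, 1633 (1619 to 1646) in BM only and 1882 (1869 to 1895) in BM + Spl.
All 3 chains were thus within 1.5-fold between BM only and BM + Spl. Tap1, the first half-transporter, was at 120.5 CPM in C57BL/6, 123 in BM only and 150.4 in BM + Spl. Tap2, its partner, was at 129 CPM in C57BL/6, 174 in BM only and 185 in BM + Spl. Tapbp, tapasin, was at 189 CPM in C57BL/6, 189 in BM only and 190.0 in BM + Spl, nearly the same level in each library.
Psmb8, which replaces the chymotrypsin-like subunit Psmb5, was at 789 CPM in C57BL/6, 856 in BM only and 1018 in BM + Spl. Psmb9, which replaces Psmb6, was at 178 CPM in C57BL/6, 245 in BM only and 348 in BM + Spl and had the widest gap between the BMT libraries. Nlrc5, the class I transactivator, was at 19.4 CPM in C57BL/6, 43.4 in BM only and 45.6 in BM + Spl. Cd1d1, the molecule that the sorted receptors recognize, was at 16.7 CPM in C57BL/6, 20.7 in BM only and 21.4 in BM + Spl. UMIs were not corrected for transcript length, so that levels are compared between cells and not between genes.

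The comparison of NKT1-like with NKT2-like cells within a library asks whether the genes follow the effector program of the cells. In BM + Spl the question is limited by the NKT1-like gate. There the iNKT identity genes (Zbtb16, Trav11, Trav11d and Traj18) summed to 22.2 CPM, against 65.2 in BM only. They summed to 18.6 CPM in Treg-like and 17.2 in Cd8a+Cd8b1+ cells of BM + Spl. The BM + Spl gate may thus hold many other T cells, and their part in its ratios was not tested. Higher levels were found in NKT1-like cells for H2-K1, H2-D1 and Nlrc5, and this held in all 3 libraries, while B2m, Tap1, Tap2, Tapbp, Psmb8 and Psmb9 stayed within 1.5-fold. In NKT1-like cells H2-K1 was at 2031 CPM (1996 to 2067) in C57BL/6, 2467 (2438 to 2497) in BM only and 2923 (2864 to 2983) in BM + Spl. In NKT2-like cells it was at 751 CPM (740.3 to 762) in C57BL/6, 669 (651 to 688) in BM only and 759.9 (745 to 775) in BM + Spl. The log2 ratio of NKT1-like over NKT2-like was 1.43 (1.40 to 1.47) in C57BL/6, 1.88 (1.84 to 1.93) in BM only and 1.94 (1.90 to 1.98) in BM + Spl.
The lowest of these summed NKT1-like levels of H2-K1 exceeded the highest NKT2-like level. The share of all genes separated in this way was not counted. H2-D1 was at 1713 CPM in C57BL/6, 1896 in BM only and 2088 in BM + Spl in NKT1-like cells and at 1008 CPM in C57BL/6, 808 in BM only and 924 in BM + Spl in NKT2-like cells. Its log2 ratio was 0.77 (0.73 to 0.80) in C57BL/6, 1.23 (1.19 to 1.27) in BM only and 1.18 (1.13 to 1.22) in BM + Spl. The difference was smaller than that of H2-K1 in each library but had the same direction.
Of the 10 genes, 3 passed 1.5-fold in C57BL/6, where 25% of all genes with at least 100 UMIs did, 4 in BM only (background 29%) and 4 in BM + Spl (background 29.1%). The counts themselves were thus near the background share, and H2-K1, H2-D1 and Nlrc5 were among the genes that passed in each library.

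Nlrc5, the transactivator of class I promoters, differed in the same direction as the heavy chains. It was at 32.6 CPM (28.3 to 37.4) in C57BL/6, 56.3 (51.9 to 61.0) in BM only and 60.6 (52.4 to 69.7) in BM + Spl in NKT1-like cells. In NKT2-like cells it was at 15.3 CPM in C57BL/6, 27.9 in BM only and 29.7 in BM + Spl. Its log2 ratio was 1.09 (0.83 to 1.34) in C57BL/6, 1.01 (0.78 to 1.25) in BM only and 1.03 (0.77 to 1.28) in BM + Spl. In C57BL/6 cells with an iNKT V beta segment, of which the NKT1-like gate held 79, Nlrc5 had too few UMIs to be counted, and H2-K1 and H2-D1 were the genes past 1.5-fold.

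The light chain did not share the difference of the heavy chains. B2m was at 1625 CPM in C57BL/6, 1737 in BM only and 1888 in BM + Spl in NKT1-like cells and at 1468 CPM in C57BL/6, 1583 in BM only and 1842 in BM + Spl in NKT2-like cells, with log2 ratios of 0.15, 0.13 and 0.04. Accordingly, the UMIs of H2-K1 and H2-D1 together for each UMI of B2m were 2.30 (2.25 to 2.36) in NKT1-like and 1.20 (1.18 to 1.22) in NKT2-like cells of C57BL/6. They were 2.51 (2.47 to 2.56) and 0.933 (0.909 to 0.958) in BM only.
In BM + Spl they were 2.65 (2.58 to 2.74) and 0.914 (0.898 to 0.932). The balance between heavy chains also moved. UMIs of H2-K1 for each UMI of H2-D1 were 1.19, 1.30 and 1.40 in NKT1-like cells of C57BL/6, BM only and BM + Spl and 0.746, 0.828 and 0.822 in NKT2-like cells.

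**Figure D2:**
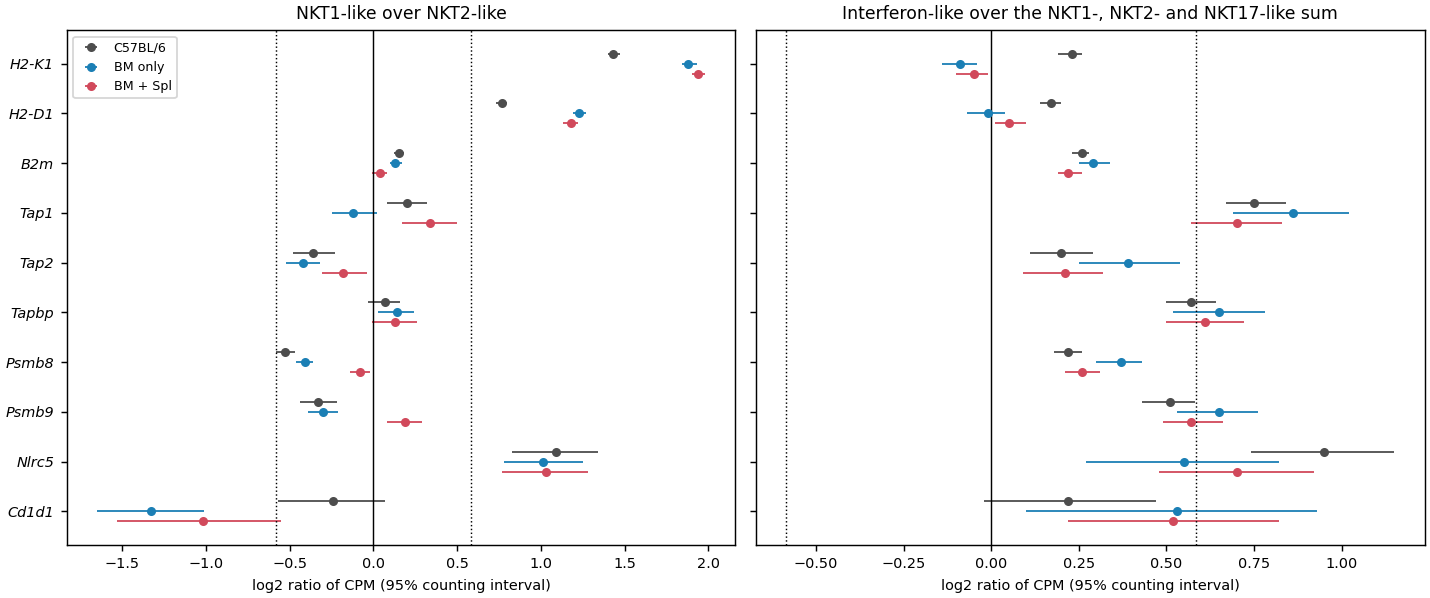
Log2 ratio of CPM (x axis; bars, 95% counting intervals) of each gene (y axis) in NKT1-like over NKT2-like cells (left) and in interferon-like cells over the sum of the NKT1-like, NKT2-like and NKT17-like cells (right), by library. Dotted lines mark 1.5-fold. H2-K1, H2-D1 and Nlrc5 lie right of the line in all libraries on the left, and Tap1 does on the right.

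The same UMIs were also viewed cell by cell. UMIs of H2-K1, H2-D1 and B2m together made up a median of 0.542%, 0.610% and 0.703% of the UMIs of an NKT1-like cell in C57BL/6, BM only and BM + Spl. In NKT2-like cells the medians were 0.328%, 0.309% and 0.360%. The boxes between quartiles did not overlap in any library. How often other genes separate in this way was not counted. The 25th percentile of NKT1-like cells (0.433%, 0.474% and 0.536%) exceeded the 75th percentile of NKT2-like cells (0.425%, 0.413% and 0.470%). Single cells of the gates did overlap, as the 5th percentile of NKT1-like cells (0.305%, 0.314% and 0.395%) lay below that 75th percentile. NKT1-like cells were shallower, with a median of 6368, 4356 and 4552 UMIs against 13282, 8046 and 8946 in NKT2-like cells. With every cell thinned to 2700 UMIs, H2-K1, H2-D1 and Nlrc5 were still past 1.5-fold in all 3 libraries.

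**Figure D3:**
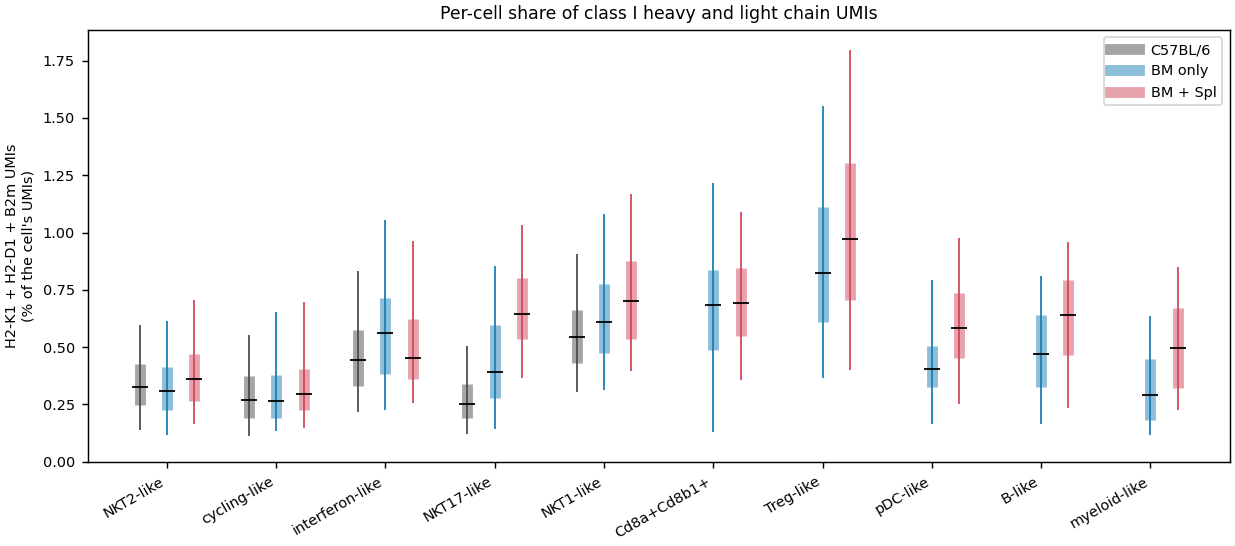
Percentage of a cell's UMIs that came from H2-K1, H2-D1 and B2m (y axis) by gate (x axis) and library. Horizontal lines are medians over cells, boxes span the 25th to 75th percentile and thin lines the 5th to 95th. Treg-like cells had the highest medians (0.825% in BM only and 0.972% in BM + Spl), and NKT2-like and cycling-like cells had low ones in every library.

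H2-K1 and H2-D1 were higher in cells with more NKT1 markers. Cells thinned to 2700 UMIs were binned by how many of 8 NKT1 markers had a UMI. Cells of the B-like, myeloid-like, pDC-like, Treg-like, immature-thymocyte-like and Cd8a+Cd8b1+ gates were left out of the bins. H2-K1 went from 808 CPM (785 to 833) with 0 markers to 2293 CPM (2182 to 2409) with 5 or more in C57BL/6. It went from 1029.6 to 2691 CPM in BM only and from 1199 to 3075 CPM in BM + Spl, where it was level from 3 markers on.
H2-D1 went the same way, from 1013 to 1898 CPM in C57BL/6, from 1010.4 to 2044 in BM only and from 1189 to 2338 in BM + Spl. Psmb8 went the other way, from 809.5 to 511 CPM in C57BL/6, from 902 to 732 in BM only and from 1023 to 842 in BM + Spl. Cells with 1 NKT1 marker had 929, 1459.8 and 2172 CPM of H2-K1 in C57BL/6, BM only and BM + Spl. High H2-K1 was not particular to NKT1-like cells. Without thinning, cells of no gate had 1086, 2010 and 2849 CPM of H2-K1 in C57BL/6, BM only and BM + Spl. Their median number of NKT1 markers was 2, 1 and 1.

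**Figure D4:**
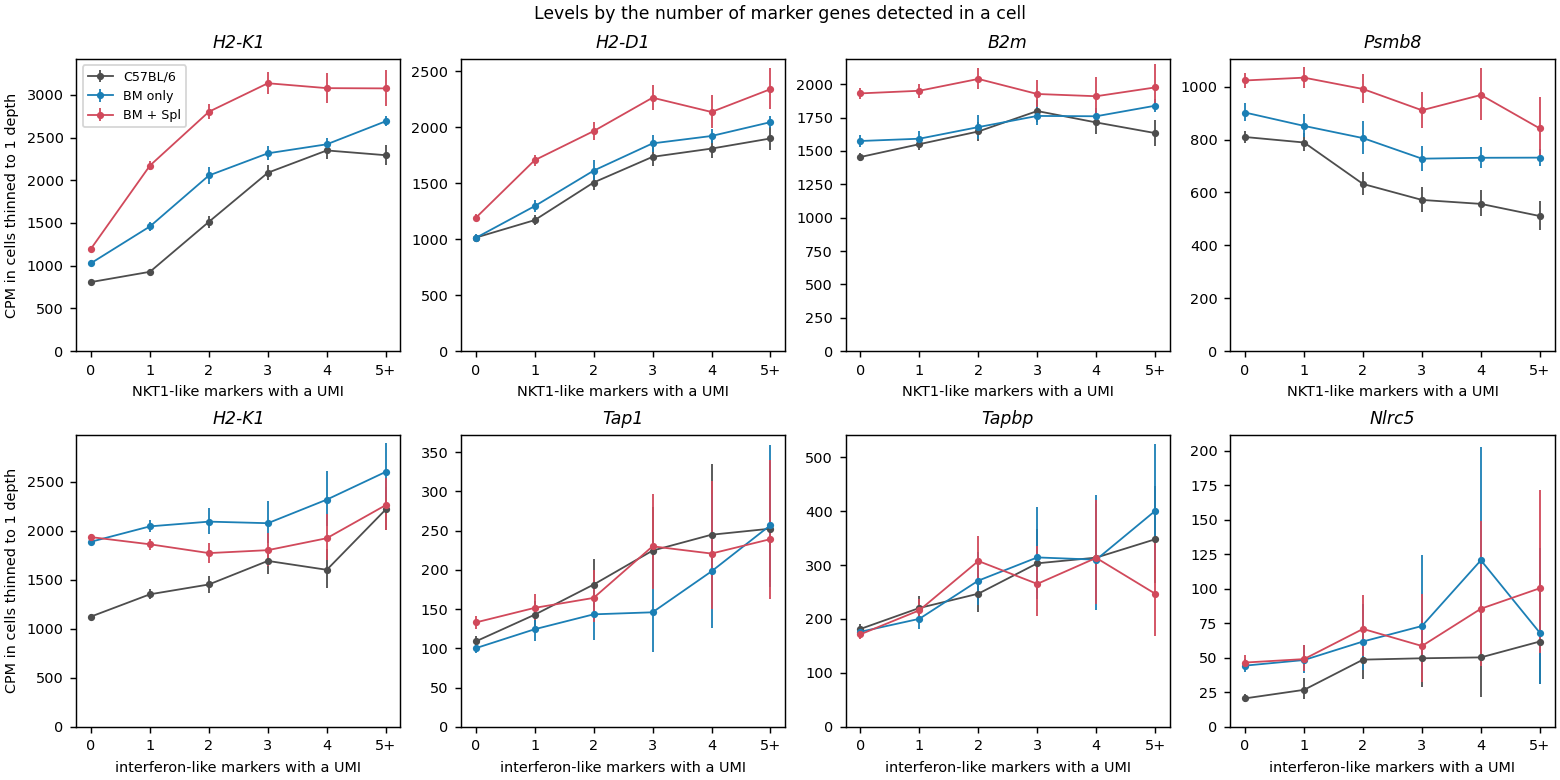
CPM (y axis; bars, 95% counting intervals) in cells thinned to 2700 UMIs, by how many NKT1 markers (upper row) or interferon-response markers (lower row) had a UMI in the cell (x axis). Cells of the B-like, myeloid-like, pDC-like, Treg-like, immature-thymocyte-like and Cd8a+Cd8b1+ gates were left out. H2-K1 and H2-D1 were higher with more NKT1 markers in all libraries and Psmb8 lower, and Tap1 was higher with more interferon-response markers.

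The immunoproteasome subunits did not follow the heavy chains. Psmb8 was at 531 CPM in C57BL/6, 705 in BM only and 907 in BM + Spl in NKT1-like cells and at 765 CPM in C57BL/6, 936 in BM only and 960.1 in BM + Spl in NKT2-like cells. Its log2 ratio was -0.53 (-0.58 to -0.47) in C57BL/6, -0.41 (-0.46 to -0.36) in BM only and -0.08 (-0.14 to -0.02) in BM + Spl. Psmb9 was at 131 CPM in C57BL/6, 200.4 in BM only and 299.8 in BM + Spl in NKT1-like cells and at 165 CPM in C57BL/6, 246 in BM only and 264 in BM + Spl in NKT2-like cells, with log2 ratios of -0.33, -0.30 and 0.19.
Psmb8 passed 1.5-fold in C57BL/6, as lower in NKT1-like cells, under another scaling of the counts, and Psmb9 had opposite signs in the libraries. Their constitutive counterparts had ratios below 0 in each library. The log2 ratios of Psmb5 were -0.64, -0.45 and -0.38 in C57BL/6, BM only and BM + Spl, those of Psmb6 -0.56, -0.43 and -0.11 and those of Psmb7 -0.76, -0.91 and -0.32.
Psmb10, the remaining immunosubunit, had log2 ratios of -0.06, -0.03 and -0.12. The ratio of Psmb9 to Psmb6 UMIs over all cells was 0.885 in C57BL/6, 1.27 in BM only and 1.51 in BM + Spl. The ratio of Psmb8 to Psmb5 was 3.99 in BM only and 3.90 in BM + Spl.

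Among the transport and loading genes, none passed 1.5-fold between NKT1-like and NKT2-like cells. Tap1 had log2 ratios of 0.20, -0.12 and 0.34, Tap2 of -0.36, -0.42 and -0.18 and Tapbp of 0.07, 0.14 and 0.13 in C57BL/6, BM only and BM + Spl. UMIs of Tap1 for each UMI of Tap2 were 1.15, 0.645 and 0.776 in NKT1-like cells and 0.781, 0.523 and 0.544 in NKT2-like cells.

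Cd1d1 differed between the libraries. In BM only it was at 12.3 CPM (10.3 to 14.6) in NKT1-like and 30.8 CPM (26.9 to 35.1) in NKT2-like cells. In BM + Spl it was at 12.8 CPM (9.19 to 17.4) and 26.0 CPM (23.2 to 29.0). In C57BL/6 it was at 16.2 CPM (13.2 to 19.6) and 19.1 CPM (17.4 to 21.0), and the intervals overlapped.
The log2 ratio of NKT1-like over NKT2-like was -0.24 (-0.57 to 0.07) in C57BL/6, -1.33 (-1.65 to -1.01) in BM only and -1.02 (-1.53 to -0.55) in BM + Spl, past 1.5-fold in the BMT libraries. In BM + Spl the gene fell under the minimum of 100 UMIs in cells thinned to 2700 UMIs, with 17 UMIs in 462 NKT1-like and 69 in 1057 NKT2-like cells and a log2 ratio of -0.83 (-1.69 to -0.05).

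In NKT17-like cells the levels differed widely between the libraries. Compared with NKT2-like cells, 3 genes passed 1.5-fold in C57BL/6 (background 24.8%), 5 in BM only (background 25.1%) and 4 in BM + Spl (background 34%). H2-K1 was at 732 CPM (691 to 774) in C57BL/6, 1431 (1378 to 1485) in BM only and 2626 (2514 to 2741) in BM + Spl in NKT17-like cells, with log2 ratios over NKT2-like cells of -0.04, 1.10 and 1.79. H2-D1 was at 797 CPM in C57BL/6, 1236 in BM only and 1861 in BM + Spl, with log2 ratios of -0.34, 0.61 and 1.01.
The heavy chains of C57BL/6 NKT17-like cells were thus at or below the NKT2-like level, and those of BM + Spl lay above the NKT2-like and below the NKT1-like level of that library. Tap1 was at 89.5 CPM in C57BL/6, 67.0 in BM only and 166 in BM + Spl, with log2 ratios of -0.23, -0.65 and 0.69. Psmb9 was at 92.0 CPM in C57BL/6, 144 in BM only and 290.1 in BM + Spl, with log2 ratios of -0.84, -0.78 and 0.14. Nlrc5 was at 12.2 CPM in C57BL/6, 26.3 in BM only and 66.6 in BM + Spl, with log2 ratios of -0.33, -0.09 and 1.16.
The genes past 1.5-fold were lower in NKT17-like cells in C57BL/6 (Tap2, Psmb9 and Cd1d1), higher in BM + Spl (H2-K1, H2-D1, Tap1 and Nlrc5), and of both kinds in BM only (H2-K1 and H2-D1 higher; Tap1, Psmb9 and Cd1d1 lower).

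Cycling-like cells, gated on mitotic and replication genes, resembled NKT2-like cells. Only Cd1d1 passed 1.5-fold, as lower, in C57BL/6 (background 22.9%), BM only (background 21.8%) and BM + Spl (background 20.4%), with log2 ratios of -0.71, -0.64 and -0.95. In cells thinned to 2700 UMIs Cd1d1 was under the minimum of 100 UMIs, with log2 ratios of -0.21 (-1.42 to 0.83) in C57BL/6, -1.12 (-2.63 to 0.10) in BM only and -1.06 (-2.33 to -0.00) in BM + Spl, and 0 of the genes counted passed. H2-K1 was at 610.2 CPM in C57BL/6, 695 in BM only and 772 in BM + Spl in cycling-like cells. Psmb8 was at 941 CPM in C57BL/6, 1064 in BM only and 1089 in BM + Spl.

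Interferon-like cells carried at least 3 of 8 interferon-response markers, and between 32.7% and 44.1% of them carried exactly 3. Compared with the sum of NKT1-like, NKT2-like and NKT17-like cells, Tap1 was higher in all libraries, and the classical heavy chains stayed near the level of that sum. Tap1 was at 181 CPM (172 to 189.7) in C57BL/6, 176 (158 to 195) in BM only and 180.1 (167 to 194) in BM + Spl in interferon-like cells. Its log2 ratio was 0.75 (0.67 to 0.84) in C57BL/6, 0.86 (0.69 to 1.02) in BM only and 0.70 (0.57 to 0.83) in BM + Spl.
Tapbp was at 254 CPM in C57BL/6, 279 in BM only and 251 in BM + Spl, with log2 ratios of 0.57, 0.65 and 0.61, past 1.5-fold in the BMT libraries. Psmb9 was at 219 CPM in C57BL/6, 332 in BM only and 404 in BM + Spl, with log2 ratios of 0.51, 0.65 and 0.57, past 1.5-fold in BM only. Nlrc5 was at 35.9 CPM in C57BL/6, 63.0 in BM only and 61.0 in BM + Spl, with log2 ratios of 0.95, 0.55 and 0.70, past 1.5-fold in C57BL/6 and BM + Spl.
Tap1 was thus the gene past 1.5-fold in all 3 libraries. Of the 10 genes, 2 passed in C57BL/6 (background 5.2%), 3 in BM only (background 11.4%) and 3 in BM + Spl (background 9.33%). The log2 ratios of H2-K1 were 0.23, -0.09 and -0.05 and those of H2-D1 0.17, -0.01 and 0.05. The sum joins gates of unlike heavy chain level. Interferon-like cells had 1176, 1608 and 1222 CPM of H2-K1 in C57BL/6, BM only and BM + Spl. These values lay between the NKT2-like and NKT1-like levels of each library. The median number of NKT2 markers in interferon-like cells was 4, 2 and 4, and its part in these ratios was not tested.
Thinned cells were also binned by interferon-response markers, with the same gates left out as for the NKT1 markers. Tap1 went from 109 CPM with 0 markers to 253 with 5 or more in C57BL/6, from 100.1 to 257 in BM only and from 133 to 239 in BM + Spl.

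Treg-like cells, which had a UMI of Foxp3, the regulatory T cell factor, reached 50 cells only in the BMT libraries and had the highest heavy chain levels of all gates there. H2-K1 was at 3237 CPM (3180.4 to 3295) in BM only and 3652 (3602 to 3703) in BM + Spl in Treg-like cells. H2-D1 was at 2271 CPM (2224 to 2319.6) in BM only and 2434 (2393 to 2475) in BM + Spl. Tap1 was at 230.2 CPM (215 to 246) in BM only and 261 (247 to 274) in BM + Spl.
Over NKT1-like cells, Tap1 had a log2 ratio of 1.25 (1.12 to 1.38) in BM only and was past 1.5-fold in BM + Spl too. Psmb9 had log2 ratios of 0.66 (0.56 to 0.76) in BM only and 0.61 (0.50 to 0.72) in BM + Spl. The heavy chains stayed within 1.5-fold of NKT1-like cells. In BM only 3 genes passed (Tap1, Psmb9 and Cd1d1; background 31.6%), and in BM + Spl 2 did (Tap1 and Psmb9; background 22%).
In cells with UMIs of both Cd8a and Cd8b1, H2-K1 was at 2655 CPM in BM only and 2739 in BM + Spl and Nlrc5 at 76.1 CPM in BM only and 72.8 in BM + Spl, the highest point values of Nlrc5 of any gate of at least 50 cells. These intervals overlapped those of NKT1-like, Treg-like, B-like and interferon-like cells in both libraries and of NKT17-like cells in BM + Spl. In the gate of the myeloid list, which held 61 and 68 cells, Nlrc5 was at 18.7 CPM in BM only and 18.8 in BM + Spl. In plasmacytoid dendritic (pDC-like) cells Tapbp was at 271 CPM in BM only and 273 in BM + Spl.

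The comparison of BM + Spl with BM only asks what differed with GvHD. Over all filtered cells, 0 of the 10 genes passed 1.5-fold, against a background of 12.6%. All 10 log2 ratios were above 0, with a median of 0.08 against 0.01 for all genes tested. The signs of H2-K1, H2-D1, Tapbp and Nlrc5 turned under some of the alternatives, with ranges of -0.46 to 0.34, -0.25 to 0.23, -0.07 to 0.08 and -0.12 to 0.26, and were negative among the cells of the 3 NKT gates and the cycling-like and interferon-like gates alone. The largest was that of Psmb9, at 0.50 (0.46 to 0.54), followed by Tap1 at 0.29 (0.23 to 0.34) and Psmb8 at 0.25 (0.23 to 0.27).
H2-K1 and H2-D1, at 0.02 (0.01 to 0.04) and 0.02 (-0.00 to 0.03), were level. As fewer cells of a gate change the sum over all cells, the same comparison was made within gates. In the NKT1-like gate 0 of 10 passed (background 19.4%), and Psmb9 was just under the threshold, at 200.4 CPM in BM only and 299.8 in BM + Spl and a log2 ratio of 0.58 (0.47 to 0.69). It passed when cells above the 95th percentile of UMIs were left out, when cells were weighted equally, with gates at 2 markers and in cells with iNKT V beta segments. Over all alternatives its log2 ratio ranged from 0.50 to 0.67, so that other settings lowered it.
The summed level of the Treg-like markers in NKT1-like cells was 838 CPM in BM only and 1989.5 CPM in BM + Spl, with Foxp3 at 0 in BM + Spl. That of the iNKT identity genes was 65.2 and 22.2 CPM. Cells with a UMI of Foxp3 and at least 3 Treg-like markers had been placed in the Treg-like gate first. The gate order thus largely set Foxp3 to 0 in NKT1-like cells. The part of these marker genes in the values of NKT1-like cells was not tested. In the NKT2-like gate, where V beta shares were alike, 0 of 10 passed (background 2.34%), and the log2 ratios lay between -0.25 (Cd1d1) and 0.22 (B2m).

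**Figure D5:**
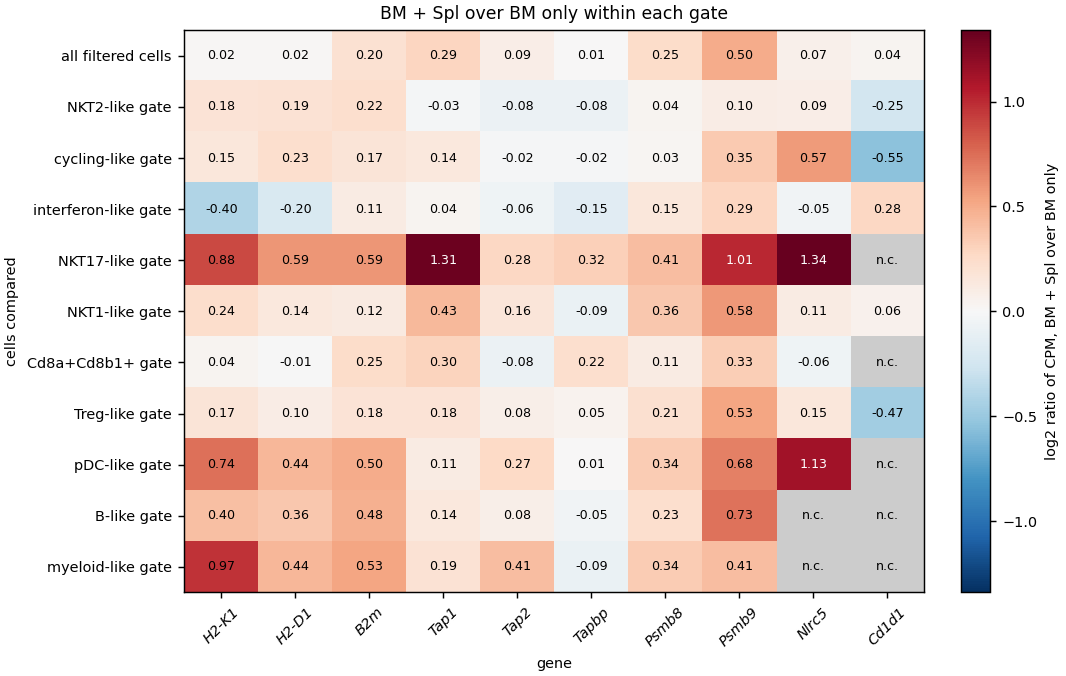
Log2 ratio of CPM in BM + Spl over BM only (colour and number) for each gene (x axis) among all filtered cells and within each gate (y axis). Grey cells marked n.c. had fewer than 100 UMIs over both sums and were not counted. The NKT17-like row holds the largest number of ratios past 1.5-fold, and the all-cell and NKT2-like rows hold 0.

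In the NKT17-like gate, 6 of 9 counted genes were past 1.5-fold and higher in BM + Spl, against a background of 13.3%. This comparison was singled out after its values were seen. H2-K1 was at 1431 CPM (1378 to 1485) in BM only and 2626 (2514 to 2741) in BM + Spl, a log2 ratio of 0.88 (0.79 to 0.96). Tap1 was at 67.0 CPM (55.9 to 79.5) in BM only and 166 (139 to 197) in BM + Spl, a log2 ratio of 1.31 (0.95 to 1.67). Psmb9 was at 144 CPM (127 to 162) in BM only and 290.1 (254 to 330.0) in BM + Spl, a log2 ratio of 1.01 (0.76 to 1.27).
Subunits of the heavy chain complex, of the transporter and of the immunoproteasome were thus all among the genes that passed. Nlrc5 was at 26.3 CPM (19.6 to 34.5) in BM only and 66.6 (49.9 to 87.1) in BM + Spl, a log2 ratio of 1.34 (0.76 to 1.93). H2-D1 had a log2 ratio of 0.59 (0.50 to 0.69) and B2m of 0.59 (0.50 to 0.69). Both lay at the threshold and went under it with some alternatives, down to 0.48 and 0.53. Tap2, Tapbp and Psmb8 had 0.28, 0.32 and 0.41, and Cd1d1 had too few UMIs to be counted.
The NKT17-like gates differed in more than these genes. The summed level of NKT17 markers was 2993 CPM in BM only and 2788 in BM + Spl. That of Treg-like markers was 1333 and 1901, with Foxp3 at 0 in BM only, which follows in part from the Treg-like gate being filled first. That of iNKT identity genes was 175 and 47.7, with 3 of the 4 at 0 in BM + Spl. In cells with iNKT V beta segments, 201 in BM only and 51 in BM + Spl, 5 of 8 counted genes were past 1.5-fold. These were H2-K1, H2-D1, B2m, Tap1 and Psmb9, all higher in BM + Spl, against a background of 11.3% in these cells. The segments were also carried by 37.5% of assignable Cd8a+Cd8b1+ and 27.9% of Treg-like cells of BM + Spl. This subset is therefore not iNKT cells alone and cannot separate a change in cell mixture from a change within iNKT cells.

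In pDC-like cells, which make type I interferon and lack a T cell receptor, 3 of 9 counted genes passed and were higher in BM + Spl (background 7.75%). H2-K1 was at 1426 CPM (1358 to 1497) in BM only and 2378 (2325 to 2433) in BM + Spl, Psmb9 at 277 CPM (247 to 309) in BM only and 443 (419.9 to 467) in BM + Spl and Nlrc5 at 18.3 CPM (11.3 to 27.9) in BM only and 39.9 (33.2 to 47.5) in BM + Spl. With gates at 2 markers, 0 of 8 counted genes passed. Nlrc5, with 35 UMIs in all and a log2 ratio of 2.14 (0.64 to 4.10), was then not counted. That setting left 79 cells in BM only and 99 in BM + Spl in the pDC-like gate. The myeloid-like list is read before the pDC-like list, and pDC-like cells had a median of 2 myeloid-like markers in both libraries. The setting thus covers a remainder of the pDC-like gate and not a wider gate. Genes of the T cell receptor complex summed to 508 CPM in BM only and 972 CPM in BM + Spl in this gate, and their part in these values was not tested.
In B-like cells, 1 of 8 passed (Psmb9, background 13.2%), and in the gate of the myeloid list 1 of 8 (H2-K1, background 11.4%). Psmb9 in B-like cells was at 317 CPM in BM only and 527 in BM + Spl, and H2-K1 in the gate of the myeloid list at 787 CPM in BM only and 1539.6 in BM + Spl. Myeloid markers summed to 5359.8 CPM in that gate in BM only and 2762 in BM + Spl, and pDC markers to 2427 and 4612, so that its BM + Spl cells went against the name of the list, and the part of this in H2-K1 was not tested. Of the T cell gates, 0 genes passed in interferon-like (background 8.56%), cycling-like (background 3.77%), Treg-like (background 6.97%) and Cd8a+Cd8b1+ cells (background 7.82%) and in cells of no gate (background 8.21%).
In interferon-like cells H2-K1 had a log2 ratio below 0, at -0.40 (-0.46 to -0.33). NKT1 markers summed to 1951 CPM in this gate in BM only and to 465 CPM in BM + Spl, and their part was not tested.

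C57BL/6 was compared with BM only, mice without and with BMT. Over all cells H2-K1, with a log2 ratio of -0.95 (-0.97 to -0.93), and Nlrc5, with -1.16 (-1.28 to -1.05), passed as lower in C57BL/6. That is 2 of 10 against a background of 46.3%, and the median over all genes tested was -0.18. With gates weighted equally, Tap2 and Nlrc5 were the genes that passed.
In the NKT1-like gate Psmb9 and Nlrc5 passed as lower in C57BL/6 (background 42.3%), and in the NKT2-like gate Nlrc5 and Cd1d1 did (background 38.9%). H2-K1 had log2 ratios of -0.28 in NKT1-like and 0.17 in NKT2-like cells, both within 1.5-fold. Nlrc5 had -0.79 (-1.02 to -0.56) and -0.87 (-1.12 to -0.61).

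Beyond the 10 genes, 47 genes of the pathway were listed by role. Of the other class I heavy chains, 5 of 8 counted were past 1.5-fold between NKT1-like and NKT2-like cells in C57BL/6 (background 25%), 3 of 7 in BM only (background 29%) and 3 of 7 in BM + Spl (background 29.1%), all higher in NKT1-like cells. H2-Q6 was at 130.4 CPM in C57BL/6, 148 in BM only and 166 in BM + Spl in NKT1-like cells and at 13.3 CPM in C57BL/6, 13.6 in BM only and 16.7 in BM + Spl in NKT2-like cells. Its log2 ratios were 3.30, 3.44 and 3.31, and H2-Q6 was named after its values were seen.
H2-Q7, among the genes that encode Qa-2, was at 409 CPM in C57BL/6, 142 in BM only and 319 in BM + Spl in NKT1-like cells and at 108 CPM in C57BL/6, 58.4 in BM only and 83.8 in BM + Spl in NKT2-like cells. Over all cells it was past 1.5-fold in BM + Spl over BM only, at 112 CPM in BM only and 180.3 in BM + Spl and a log2 ratio of 0.68 (0.62 to 0.74). In NKT1-like cells the log2 ratio was 1.17 (1.05 to 1.28). The gap was smaller in NKT2-like cells, at 58.4 CPM in BM only and 83.8 in BM + Spl. The iNKT V beta share of NKT1-like cells was 92.8% in BM only and 39.2% in BM + Spl, and its part in this ratio was not tested. H2-Q6 and H2-Q7 are near-identical neighbours, so the split of reads between them is uncertain.
Of the constitutive proteasome subunits, 2 of 3 were past 1.5-fold in the same comparison in C57BL/6 and 1 of 3 in BM only, all lower in NKT1-like cells, and 0 of 3 in BM + Spl, against the same backgrounds. Of 14 regulators of class I transcription, 0 passed between BM + Spl and BM only over all cells (background 12.6%). Between interferon-like and NKT cells, 4 of 14 passed in C57BL/6 (background 5.2%), 4 of 13 in BM only (background 11.4%) and 5 of 13 in BM + Spl (background 9.33%), all higher in interferon-like cells.
Of 8 other peptide loading and trimming genes, 0 passed in BM + Spl over BM only (background 12.6%). Of the 4 genes of the proteasome activator subunits and Psmb10, 0 passed, against the same background. Of 7 genes of CD1d lipid loading in the files, 1 was higher and 1 lower, against the same background. Ctsl, a lysosomal protease, was at 41.8 CPM in BM only and 104 in BM + Spl. Mttp, a lipid transfer protein that helps load CD1d, was at the low levels of 3.42 CPM in BM only and 1.90 in BM + Spl. These are sums over all cells. The share of pDC-like cells was 2.80% in BM only and 6.87% in BM + Spl, and that of NKT1-like cells 40.1% and 10.6%. The part of these shares in Ctsl and Mttp was not tested.
In the NKT17-like gate 4 of 6 counted other heavy chains passed and were higher in BM + Spl (background 13.3%), among them H2-Q7 with a log2 ratio of 1.95 (1.62 to 2.28). The iNKT V beta share of this gate was 67.2% in BM only and 39.5% in BM + Spl, and its part was not tested.

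Across 25 points, each a gate of a library with at least 50 cells and centred within its library, H2-K1 and H2-D1 varied together (Pearson r = 0.94). Nlrc5 was closest to B2m (0.85) and H2-K1 (0.74), Tap1 to its neighbour Psmb9 (0.76), and Cd1d1 to Tap2 (0.77). H2-K1 and Psmb8 had r = -0.39. These points share libraries, depth and gates, and the values are a description. The lowest points of Cd1d1 were those of the gate of the myeloid list. They lay at -2.49 in BM only, from 1 UMI, and at -1.16 in BM + Spl, from 5 UMIs. Their part in the r values of Cd1d1, here and below, was not tested.
Among 6442 genes outside the gate markers, the profile most like the mean of the 9 genes other than Cd1d1 was that of H2-T22, a nonclassical class I gene (r = 0.927), followed by H2-Q4 (0.854), the receptor gene Gpr174 (0.842), the interferon-induced GTPase Gbp3 (0.809) and H2-Q7 (0.806). The genes most like Cd1d1 were Pdlim2 (0.889), Plgrkt (0.864), Paip2 (0.857), Tspan32 (0.854) and Ephx1 (0.854).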

How the data were processed

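The sorted thymic cells were captured as 3 droplet libraries, 1 per group. The labels name 3' and 5' library kits without saying which library used which. Levels and V beta detection depend on the end read. An iNKT V beta segment was called in 786 of 4434 C57BL/6 cells, 3915 of 5970 BM only cells and 2728 of 5557 BM + Spl cells. The part of the end read in these counts and in the levels was not tested. The authors aligned reads to mm10 with Cell Ranger and deposited UMI counts per gene and cell, not normalized or filtered. The headers name Cell Ranger 3.0.2 for C57BL/6 and 7.0.0 for the BMT libraries, and the paper another version. Version 7.0.0 counts intronic reads by default and version 3.0.2 does not; the setting used is not given in the sources used here. The submitters' notes also name Seurat 4.0.2. Doublets were kept.

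Cells that met the filter (more than 200 but fewer than 6000 genes, less than 10% of UMIs mitochondrial) were gated on raw UMIs by 8 markers per list, in the order B-like, myeloid-like, pDC-like, Treg-like, immature-thymocyte-like, Cd8a+Cd8b1+, cycling-like, interferon-like, then NKT1-like, NKT2-like or NKT17-like by the leading list. UMIs were summed per gate and library and scaled to CPM over 30406 shared genes. Intervals at 95% are exact Poisson for CPM and exact conditional binomial for log2 ratios. A gene was called when past 1.5-fold and counted with at least 100 UMIs over both sums; the background is the share of all such genes past 1.5-fold. With 1 library per group no test was run. V beta calls needed 80% of a cell's V beta UMIs, over 6 segments taken as typical of iNKT cells.

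The 10 genes, marker lists and pathway lists were chosen with earlier results of these data known. All 10 are named; of the 47 other pathway genes, those past 1.5-fold in BM + Spl over BM only among all cells, the counterparts of Psmb8 and Psmb9, and the 5 genes of most alike profile (at least 500 UMIs in each library) are named. Of the alternatives, 13 were planned, and 2 settings and the NKT17-like and pDC-like results were added after values were seen. Promoters are RefSeq's (GRCm38.p6). The calculations, run with biopython 1.88, matplotlib 3.10.9, pandas 2.3.3, scipy 1.17.1 and numpy 2.4.6 (Python 3.11.15), were tested on simulated data. Depth was 58852959, 34952063 and 43317172 UMIs in kept cells of C57BL/6, BM only and BM + Spl.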

Additional observations from a re-analysis of the deposited data

Results flagged for a closer look

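Some ratios had opposite signs, with intervals on either side of 0, in different libraries or gates; none of these differences was tested, since each group has 1 library. In NKT17-like over NKT2-like cells, the log2 ratio of H2-D1 was -0.34 in C57BL/6 against 0.61 in BM only and 1.01 in BM + Spl, and that of Tap1 was -0.65 in BM only against 0.69 in BM + Spl. In BM + Spl over BM only, the log2 ratio of H2-K1 was -0.40 in interferon-like cells against 0.88 in NKT17-like, 0.74 in pDC-like cells and 0.97 in the gate of the myeloid list, whose summed pDC markers went from 2427 to 4612 CPM and myeloid markers from 5359.8 to 2762 CPM, and that of H2-D1 was -0.20 in interferon-like against 0.59 in NKT17-like cells.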

How the results depend on the processing

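No paired analysis was possible because each group has 1 library. Under the alternatives, 152 counts of genes past 1.5-fold stayed within 1.5 times of the reported count and 24 did not. Of 429 values of called genes, 428 kept their sign and 380 stayed past 1.5-fold; the exception was Nlrc5 in C57BL/6 over BM only, with a log2 ratio of 0.27 in Trav11+ cells. The causes of the following shifts were not tested. With cells above the 95th percentile of UMIs left out, the count was 1 in BM + Spl over BM only in NKT1-like cells, and for cycling-like over NKT2-like cells it was 0 in C57BL/6 and 2 in BM only. In cells thinned to 2700 UMIs it was 3 for NKT17-like over NKT2-like cells in BM only, 0 for cycling-like over NKT2-like cells in C57BL/6, BM only and BM + Spl, and 4 for interferon-like cells in C57BL/6; Cd1d1 was then under the minimum of UMIs in these NKT17-like and cycling-like comparisons. With the mean of cells in place of summed UMIs, 1 gene (Psmb9) passed in BM + Spl over BM only in all cells and in NKT1-like cells, and 2 did for cycling-like cells in BM only. With mitochondrial, ribosomal protein and the 10 genes out of the denominator, 2 passed for cycling-like cells in C57BL/6 and in BM only. In Trav11+ cells 1 gene (Tap1) passed for C57BL/6 over BM only and 0 for cycling-like cells in C57BL/6; comparisons that need such cells of a BMT gate or of BM + Spl had too few. With gates at 2 markers, the count in BM + Spl over BM only was 1 (Psmb9) in NKT1-like cells and 0 in pDC-like cells. Fewer pDC-like cells were then left, and Nlrc5 was under the minimum of UMIs in them. At 2 markers the count was 0 for cycling-like cells in C57BL/6 and 1 for interferon-like cells in BM + Spl. With gates at 4 markers it was 1 for NKT17-like over NKT2-like cells in C57BL/6, 0 for cycling-like cells in BM only and 5 for interferon-like cells in BM only. In cells with an iNKT V beta segment it was 1 (Psmb9) in BM + Spl over BM only in NKT1-like cells and 0 for cycling-like cells in C57BL/6. Median-of-ratios scaling moved the log2 ratios of C57BL/6 over BM only by 0.14 and the others by less than 0.1. With no minimum of UMIs, the background of BM + Spl over BM only in all cells was 36.2% in place of 12.6%. Depth limits Nlrc5 and Cd1d1 most, whose intervals were the widest of the 10 genes.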
